A study of Homo sapiens with 4 samples.

Results

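The aldo-keto reductases are enzymes that reduce aldehydes and ketones to alcohols with NADPH. Here 9 of their genes were followed, the AKR1A1, AKR1B1, AKR1B10, AKR1B15, AKR1C1, AKR1C2, AKR1C3, AKR1C4 and AKR7A2 rows of a table of 57820 genes, found by gene symbol. All 9 passed the filter on low values. Levels were measured by RNA-seq in A549, an established human lung adenocarcinoma line described by the series as NRF2-activated, with the aim of finding transcripts that depend on the transcription factor CEBPB. There were 2 libraries of cells given control siRNA and 2 of cells given siRNA against CEBPB, siRNA-1 in 1 library and siRNA-2 in the other. All cells had fresh medium 24 h after transfection and were harvested 24 h later. The spread within the CEBPB siRNA group therefore holds the difference between the siRNAs. For the controls, no label says that they were separate cultures, so p-values measure only the spread between these samples.

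The AKR1C enzymes are ketosteroid reductases. AKR1C1 inactivates progesterone, AKR1C2 inactivates dihydrotestosterone, AKR1C3 makes testosterone and prostaglandin F, and AKR1C4 is the form best known from liver bile acid synthesis. AKR1B1 is aldose reductase, the first enzyme of the polyol pathway, and AKR1B10 reduces retinal and lipid aldehydes. AKR1A1 is aldehyde reductase, and AKR7A2 reduces aflatoxin dialdehyde and succinic semialdehyde. AKR1C1, AKR1C2, AKR1C3 and AKR1B10 are well-known targets of NRF2, the regulator of the antioxidant response.

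The AKR1C genes lie in a cluster on chromosome 10 and the AKR1B genes in another on chromosome 7, with a few other genes between them, and the copies are so alike that a read may belong to several of them. The coding starts of the AKR1C members show this. Each line holds the first 76 coding bases, the length of 1 read, from GENCODE 29, with capitals at the bases that differ from AKR1C1.
AKR1C1: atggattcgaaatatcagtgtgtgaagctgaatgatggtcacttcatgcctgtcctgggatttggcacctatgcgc
AKR1C2: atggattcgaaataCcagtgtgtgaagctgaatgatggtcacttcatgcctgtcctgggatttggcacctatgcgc
AKR1C3: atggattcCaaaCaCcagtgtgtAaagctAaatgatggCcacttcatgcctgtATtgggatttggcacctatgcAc
AKR1C4: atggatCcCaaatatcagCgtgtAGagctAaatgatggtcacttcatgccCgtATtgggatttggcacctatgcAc
AKR1C2 differed from AKR1C1 at 1 of these bases, AKR1C3 at 9 and AKR1C4 at 10. Over the whole coding sequence of 969 bases AKR1C1 and AKR1C2 differed at 19 bases, an identity of 98.0%. AKR1C3 was 91.4% identical to AKR1C1, AKR1C4 was 88.5%, AKR1B10 was 85.1% identical to AKR1B15, and AKR1B1 was 76.1% identical to AKR1B10. Of the windows of 76 bases along the main transcript, 40.9% of those of AKR1C2 and 22.0% of those of AKR1C1 occurred unchanged in a transcript of another gene. For AKR1C3 this share was 7.74%, for AKR1B10 7.13%, for AKR1B15 4.46%, for AKR1C4 4.33% and for AKR7A2 4.12%. It was 0 for AKR1A1 and AKR1B1. The main transcript was one annotated as principal where there was any. Among several, the longest coding sequence and then the longest transcript was taken. Which transcripts these cells made was not tested. AKR1C1 and AKR1C2 had 1438 such windows in common, in transcripts of 6705 and 3756 bases, so the share also depends on transcript length.

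The sequences before the RefSeq start sites of AKR1C1, AKR1C2 and AKR1C3 were also alike. These genes were low together with the CEBPB siRNAs. AKR1C4 was also low with them, at a level reported below as uncertain, and its window is not shown. RefSeq windows on GRCh38.p14 were found for 7 of the 9 members, and not for AKR1B10 or AKR1B15. The 250 bases before the start are given 5′ to 3′ on the gene's strand, for AKR1C1 at chr10:4963165-4963414 (plus strand), AKR1C2 at chr10:5003858-5004107 (minus strand), and AKR1C3 at chr10:5094164-5094413 (plus strand), the RefSeq start of AKR1C3 nearest to its main GENCODE transcript. These RefSeq starts lie 162 bases (AKR1C1) and 621 bases (AKR1C3) past the start of the main GENCODE transcript, and that of AKR1C2 also lies past it. Part of the AKR1C1 and AKR1C2 windows and the whole AKR1C3 window thus follow the GENCODE start. Capitals mark TGANNNNGC, the core of the antioxidant response element that NRF2 binds, here on the opposite strand.
AKR1C1: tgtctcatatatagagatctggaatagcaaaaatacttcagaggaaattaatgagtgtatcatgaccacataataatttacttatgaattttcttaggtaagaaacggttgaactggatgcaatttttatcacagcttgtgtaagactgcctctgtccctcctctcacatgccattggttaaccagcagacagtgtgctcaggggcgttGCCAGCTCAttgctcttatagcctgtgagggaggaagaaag
AKR1C2: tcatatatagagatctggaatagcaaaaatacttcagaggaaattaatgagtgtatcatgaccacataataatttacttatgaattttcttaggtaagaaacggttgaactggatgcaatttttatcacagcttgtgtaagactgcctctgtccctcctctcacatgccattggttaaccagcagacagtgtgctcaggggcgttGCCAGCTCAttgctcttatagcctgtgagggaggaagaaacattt
AKR1C3: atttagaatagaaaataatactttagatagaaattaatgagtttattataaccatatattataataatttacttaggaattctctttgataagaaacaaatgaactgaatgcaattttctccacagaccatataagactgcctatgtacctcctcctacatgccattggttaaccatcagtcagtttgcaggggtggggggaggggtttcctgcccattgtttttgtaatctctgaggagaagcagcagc
The AKR1C1 and AKR1C2 windows were 96.5% identical, and the AKR1C3 window was 69.2% identical to that of AKR1C1. Not shown are the AKR1C4 window, 58.7% identical to that of AKR1C1, and the other AKR1C3 window, 70.7% identical to it. Matches to TGANNNNGC, sought on both strands, were in the AKR1C1, AKR1C2 and AKR7A2 windows, and 35.2% of 35116 such windows held one. Its narrower form TGACNNNGC, which overlaps it, matched only in AKR7A2 among the member windows and in 10.9% of all. The C/EBP core TTGCNNAA, also sought on both strands, matched only in AKR1C4 and in 9.05% of all.

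CEBPB itself was at 78.7 and 80.9 FPKM (read fragments per transcript length and library depth) under control siRNA, 12.9 under siRNA-1 and 11.0 under siRNA-2. The keratins KRT8, between 1226 and 2517 FPKM, and KRT18, between 568 and 2502, were abundant. The 6 epithelial markers summed to 3603 and 5062 FPKM under control siRNA, 1827 under siRNA-1 and 2845 under siRNA-2, nearly all from these keratins. CDH1 lay between 14.0 and 32.1 FPKM, and KRT19, EPCAM and MUC1 between 1.03 and 7.38. KRT8, KRT18 and EPCAM were lower with both siRNAs, CDH1 and MUC1 overlapped, and KRT19 was higher (2.41 and 3.28, then 5.32 and 7.38). PTPRC, CD3E and LYZ of leukocytes, CDH5 and VWF of endothelium and COL1A2 of fibroblasts were listed at 0 in all 4 libraries. The leukocyte marker CD68 reached a mean of 1 FPKM (7.09 and 9.72 in the controls, 16.8 and 4.69 with the siRNAs), as did, of 5 fibroblast markers, only COL1A1 (0.717 and 0.573, then 4.22 and 2.23). The authors' mean normalized counts summed to 8341083 reads per library.

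**Figure D1:**
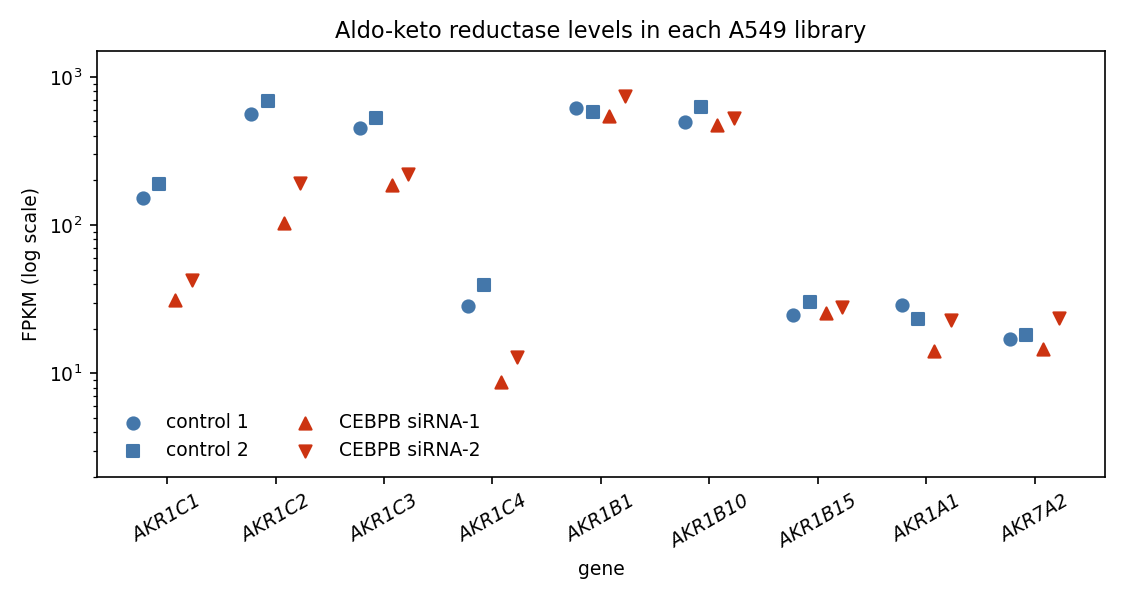
Level of each gene in FPKM (log axis) in the 4 libraries, with controls in blue and CEBPB siRNA libraries in red. All AKR1C points of the siRNA libraries lie below both controls, while the points of AKR1B1, AKR1B10, AKR1B15 and AKR7A2 overlap between the groups.

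In the controls the family made up 0.462% and 0.514% of all FPKM. AKR1C2 had the highest mean, 623 FPKM, followed by AKR1B1 at 595, AKR1B10 at 561 and AKR1C3 at 488. Each of these overlapped its neighbour in the order across the control libraries. AKR1C1 stood apart below them at 170 FPKM. AKR1C4 at 34.1, AKR1B15 at 27.5 and AKR1A1 at 26.2 overlapped in turn, and AKR7A2 was lowest at 17.5. AKR1C2 held rank 92 and 74 among all genes in the controls, and rank 655 with siRNA-1 and 337 with siRNA-2. AKR1B1 held rank 80 and 92 in the controls and 95 and 67 with the siRNAs.

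The AKR1C genes were lower with both CEBPB siRNAs, while the AKR1B genes overlapped between the groups. Fewer cells of a kind and less RNA per cell cannot be told apart in bulk RNA. AKR1C1 passed the test over all genes, AKR1C2 and AKR1C3 passed in the authors' deposited table only, and AKR1C4 passed in neither. In limma, 1 of 9 members was called lower (adjusted p below 0.05) where 0.171% of 14068 genes were, and 0 were called higher where 0.0640% were. At an unadjusted p below 0.05 there were 4 members, the AKR1C genes, all lower, where 5.13% of genes were lower at that threshold. These 4 can share reads and are not separate results, and few counted reads stand behind AKR1C4. With the AKR1C and AKR1B rows summed there was 1, the AKR1C sum. The authors' deposited table calls 3 of the 9 lower, where it calls 1.42% of 14675 genes lower. For 5 members both siRNA libraries lay below both controls, where 21.0% of genes did, and for 0 members both lay above, where 23.5% did. The median log2 change of the members was -0.51, beside 0.0010 for all genes tested. That median is the value of AKR1A1 and describes neither side of the family. The AKR1C genes lay between -2.18 and -1.26, and the AKR1B genes and AKR7A2 between -0.16 and 0.09.

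AKR1C1, the progesterone-inactivating form, was at 151 and 189 FPKM under control siRNA, 31.5 under siRNA-1 and 42.6 under siRNA-2. Both siRNA libraries were far below both controls. AKR1C1 fell by 2.18 ± 0.22 on the log2(FPKM + 1) scale (SE, n = 2 per arm; limma adjusted p = 0.0376). In the authors' deposited table its log2 change is -2.20, standard error 0.253, adjusted p 2.43e-15. The limma call was lost without control 1 (adjusted p = 0.530), without control 2 (adjusted p = 0.470) and under 4 other alternatives, while the log2 change stayed between -2.39 and -1.97 when each library was left out in turn.

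AKR1C2, the dihydrotestosterone-inactivating form, was at 562 and 684 FPKM under control siRNA, 103 under siRNA-1 and 191 under siRNA-2. The libraries did not overlap, and the siRNA libraries were further apart than the controls. Its log2 change was -2.14 ± 0.31, and the limma adjusted p was 0.102. The authors' deposited table lists -2.14, standard error 0.311, adjusted p 1.78e-09. With each library left out in turn, the limma log2 change of AKR1C2 lay between -2.58 and -1.69.

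AKR1C3, which makes testosterone and prostaglandin F, was at 448 and 528 FPKM under control siRNA, 186 under siRNA-1 and 221 under siRNA-2. The groups did not overlap, and the siRNA libraries were closer to the controls than for AKR1C1 or AKR1C2. Its log2 change was -1.26 ± 0.18, and limma gave an adjusted p of 0.0953. For this gene the authors' deposited table lists -1.16, standard error 0.224, adjusted p 2.58e-05. The limma log2 change of AKR1C3 lay between -1.39 and -1.13 when each library was left out in turn.

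AKR1C4, the liver form, was at 28.6 and 39.7 FPKM under control siRNA, 8.76 under siRNA-1 and 13.0 under siRNA-2. Its FPKM did not overlap between the groups, and its log2 change of -1.57 ± 0.26 had a limma adjusted p of 0.117. That change lay between -1.83 and -1.31 with each library left out in turn. The counts gave another picture of this gene. In the authors' deposited table its mean normalized count is 6.23, against 205 for AKR1B15, which was at a similar FPKM. AKR1C4 has a log2 change of -0.42 in the authors' deposited table, standard error 1.33, adjusted p 0.999.

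The authors' mean count per FPKM measures how many counted reads stand behind a level, and also rises with transcript length, since FPKM divides by length. It was 0.277 for AKR1C4, and between 7.55 (AKR1B15) and 18.9 (AKR1C2) for the other members. Its median was 21.3 over the 9511 genes that averaged 5 FPKM or more. Of these, 520 genes, or 5.47%, were at or below AKR1C4. Its level and change are reported as uncertain, and the part that reads shared with other AKR1C genes have in them was not tested.

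**Figure D2:**
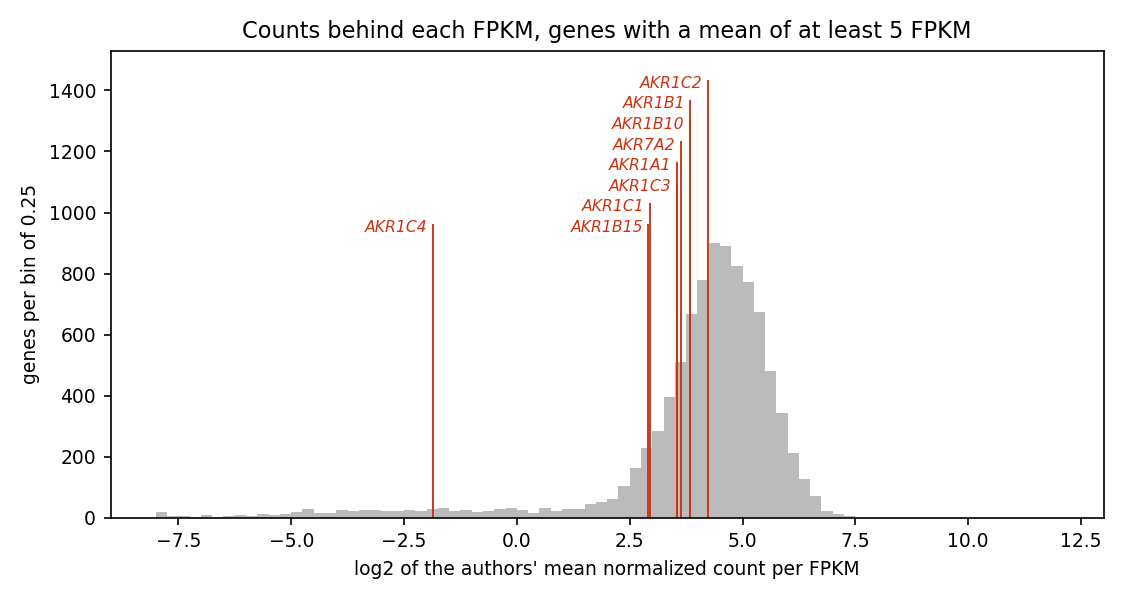
Histogram of the authors' mean normalized count per FPKM (log2 axis) over genes averaging 5 FPKM or more, without the 128 genes that have a mean count of 0; values beyond the axis are put in the end bins. Red lines mark the members: AKR1C4, at 0.277 counts per FPKM, lies apart from the others, which are between 7.55 and 18.9.

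**Figure D3:**
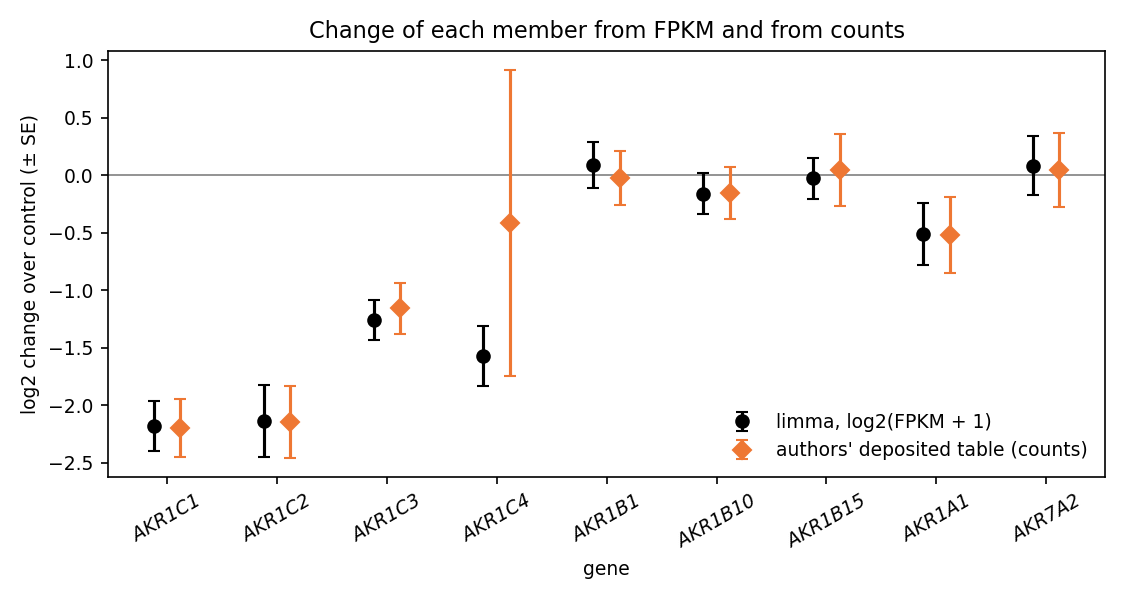
Log2 change with CEBPB siRNA over control, with its standard error, from FPKM in limma (black circles) and from the counts in the authors' deposited table (orange diamonds). The values are near each other except for AKR1C4, at -1.57 from FPKM and -0.42 from counts.

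Because the AKR1C genes share reads, their levels were also summed. A sum of FPKM still depends in part on how shared reads were split, since FPKM divides by length and the main transcripts run from 1414 bases (AKR1C4) to 6705 (AKR1C1). The sum was 1191 and 1441 FPKM under control siRNA, 328 under siRNA-1 and 468 under siRNA-2. Relative to the control mean it stood at 24.96% under siRNA-1 and 35.6% under siRNA-2, and the groups did not overlap. With the AKR1C and AKR1B rows replaced by their sums, the AKR1C sum had a log2 change of -1.74 ± 0.23 and a limma adjusted p of 0.0888. This fit called 0.164% of 14063 rows lower, and the sum was not among them. Whether the sum passed depended on the fit. Its log2 change was also -1.74 with the siRNAs as separate groups, and lay between -1.99 and -1.48 with each library left out in turn.

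The makeup of the AKR1C sum differed between the groups. AKR1C3 was 37.7% and 36.6% of it under control siRNA, 56.5% under siRNA-1 and 47.3% under siRNA-2. AKR1C2 was 47.2% and 47.5% in the controls, then 31.3% and 40.9%, and AKR1C1 was 12.7% and 13.1%, then 9.58% and 9.10%. The ratio of AKR1C3 to AKR1C1 was 2.96 and 2.79 under control siRNA, 5.90 under siRNA-1 and 5.19 under siRNA-2, without overlap. An exact two-sided permutation test gave p = 0.333, the smallest that 2 libraries against 2 allow. The ratio of AKR1C2 to AKR1C1, the nearest copies, overlapped between the groups: 3.71 and 3.61 in the controls, 3.26 and 4.49 with the siRNAs (exact permutation p = 1).

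**Figure D4:**
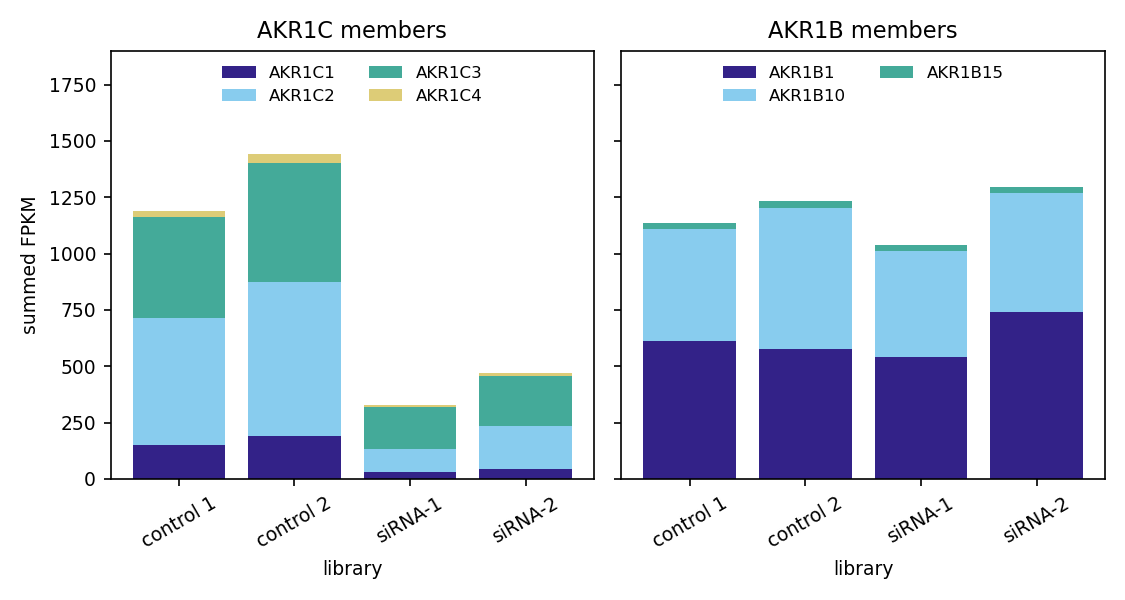
Summed FPKM of the AKR1C members (left) and the AKR1B members (right) in each library, stacked by gene. The AKR1C stack goes from 1191 and 1441 in the controls to 328 and 468 with the siRNAs, and the AKR1B stacks stay between 1038 and 1296 in all 4 libraries.

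AKR1B1, aldose reductase, was at 612 and 578 FPKM under control siRNA, 541 under siRNA-1 and 739 under siRNA-2. The siRNA libraries lay on opposite sides of the controls, and the log2 change was 0.09 ± 0.20 (limma adjusted p = 0.903). AKR1B10, the retinal and lipid aldehyde reductase, was at 497 and 624 FPKM under control siRNA, 471 under siRNA-1 and 529 under siRNA-2. The groups overlapped, with a log2 change of -0.16 ± 0.18 (limma adjusted p = 0.781). AKR1B15, its close copy, lay between 24.9 and 30.1 FPKM in the 4 libraries, with a log2 change of -0.02 ± 0.18 (limma adjusted p = 0.972). In the authors' deposited table these genes have log2 changes of -0.02, -0.15 and 0.05, none past the threshold.

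The AKR1B sum was 1134 and 1232 FPKM under control siRNA, 1038 under siRNA-1 and 1296 under siRNA-2, a log2 change of -0.03 ± 0.18 (limma adjusted p = 0.969). AKR1C to AKR1B, as a ratio of sums, was 1.05 and 1.17 under control siRNA, 0.316 under siRNA-1 and 0.361 under siRNA-2. These ratios did not overlap (exact two-sided permutation p = 0.333, the smallest possible). In the controls the AKR1C genes thus had the higher sum within each library, and in both siRNA libraries the AKR1B genes had.

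AKR1A1, aldehyde reductase, was at 29.1 and 23.4 FPKM under control siRNA, 14.1 under siRNA-1 and 22.9 under siRNA-2. Both siRNA libraries were below both controls, the siRNA-2 library only just. Its log2 change was -0.51 ± 0.27 (limma adjusted p = 0.531), and the authors' deposited table lists -0.52, adjusted p 0.668. AKR7A2, the aflatoxin aldehyde reductase, was at 17.0 and 18.0 FPKM under control siRNA, 14.6 under siRNA-1 and 23.7 under siRNA-2. It overlapped between the groups, with a log2 change of 0.09 ± 0.26 (limma adjusted p = 0.926).

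The siRNAs were then set against each other, to see how far the members followed both. All 9 members were lower with siRNA-1 than with siRNA-2, by 0.13 (AKR1B15) to 0.89 (AKR1C2) on the log2 scale. The genes tested leaned slightly the same way as a whole. Their median log2 difference from the control mean was -0.034 for siRNA-1, against 0.040 for siRNA-2. Whether the common direction is particular to the members was not tested. CEBPB itself was 0.22 ± 0.16 higher with siRNA-1 (limma adjusted p = 0.468). None of the 9 differences passed in limma with 3 groups, which called 0.441% of genes. At an unadjusted p below 0.05 there were 4 members, beside 22.4% of all genes. For AKR1C2 the difference was -0.89 ± 0.19 (limma adjusted p = 0.0944), for AKR1C1 -0.43 ± 0.20 (adjusted p = 0.295) and for AKR1C3 -0.25 ± 0.18 (adjusted p = 0.453). That fit takes its spread from the controls alone. With the filter raised to a mean of 5 FPKM it called 1293 of 9511 genes. Among them were AKR1C2 (limma adjusted p = 0.00894) and AKR7A2 (limma adjusted p = 0.0468).

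**Figure D5:**
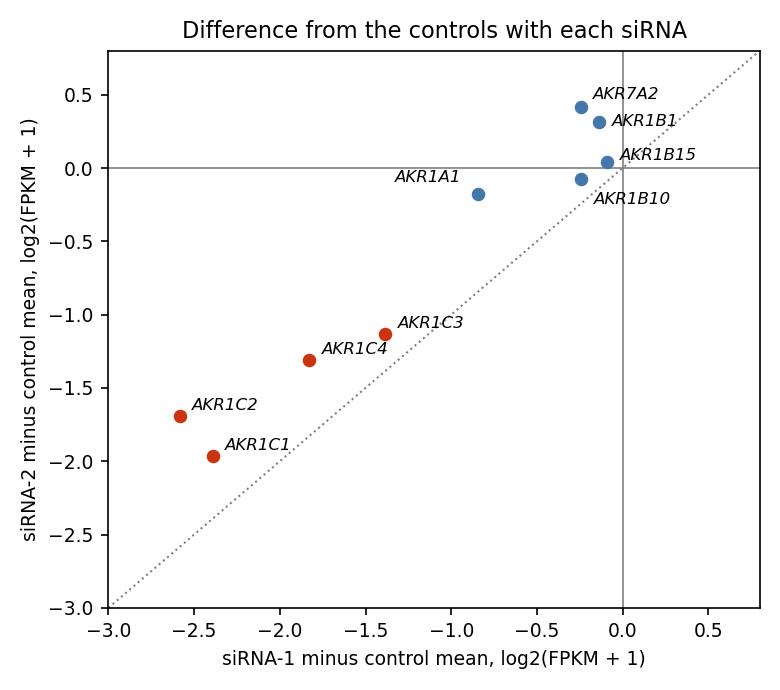
Difference from the control mean on the log2(FPKM + 1) scale with siRNA-1 (x axis) and siRNA-2 (y axis), with AKR1C genes in red, the others in blue, and equal differences on the dotted line. The AKR1C genes lie between -1.39 and -2.58 with siRNA-1 and between -1.13 and -1.97 with siRNA-2, and all 9 genes lie above the dotted line. The medians over all genes tested, -0.034 for siRNA-1 against 0.040 for siRNA-2, lean slightly the same way.

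The table holds 21 further rows of the superfamily, counting the potassium channel beta subunits KCNAB1, KCNAB2 and KCNAB3. A mean of 1 FPKM was reached by 4 of them, and 7 were listed at 0 in every library. AKR1E2, near the AKR1C genes on chromosome 10 in GRCh38.p14, had 7.61 and 5.23 FPKM, then 6.34 and 7.62 with the siRNAs (log2 change 0.12 ± 0.24). AKR1B10P1, a pseudogene that shares read-length windows with AKR1B10, was at 4.69 and 6.92, then 4.65 and 5.47. KCNAB2 was at 10.4 and 9.17, then 7.70 and 13.0, and KCNAB3 at 1.24 and 0.295, then 1.44 and 1.02. Each of these 4 overlapped between the groups, and none passed in limma, where their adjusted p was 0.713 or more.

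Other genes of the pathway were described by lists, written with earlier results of these data known. Over all genes, limma called 0.171% lower and the authors' deposited table calls 1.42% lower, and the median log2 change was 0.0010. Whether the lists differ from other genes was not tested. Among 16 NRF2 targets, limma called 2 lower, the glutathione peroxidase GPX2 and heme oxygenase HMOX1, and 0 higher. The authors' deposited table calls 3 lower, these and OSGIN1, an oxidative stress response gene at 56.2 and 44.8 FPKM in the controls and 15.3 and 18.5 with the siRNAs. Their median log2 change was -0.53. NFE2L2, which encodes NRF2, had the smallest p of 9 regulators and did not pass (-0.41 ± 0.16); 0 of the 9 passed in limma or in the authors' deposited table, and their median was -0.30. Of 9 enzymes of the pentose phosphate pathway or of other NADPH supply, 0 passed in limma, and the list's median was -0.36. PGD, of the pentose phosphate pathway, fell in the authors' deposited table (859 and 981 FPKM, then 452 and 476). Of 20 other carbonyl and aldehyde enzymes, limma called 0, with a median of -0.18, and the authors' deposited table calls ALDH2 and ALDH3A1 lower, both aldehyde dehydrogenases. ALDH2 was at 60.7 and 86.1 FPKM, then 42.1 and 31.1, and ALDH3A1 at 293 and 318, then 97.4 and 211. PTGR1, which reduces prostaglandin and lipid enones, had the smallest p there, at 127 and 150 FPKM in the controls and 86.8 and 84.8 with the siRNAs, and did not pass. Of 5 polyol and glyoxal genes 0 passed in limma or in the authors' deposited table. Their median was -0.02, and FN3K, a fructosamine kinase, had the smallest p (-0.71 ± 0.25).

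Of 35 steroid, prostaglandin and retinoid enzymes 20 were tested. Limma called 0, and the median log2 change was -0.34, beside 0.0010 for all genes tested. The authors' deposited table calls PTGES and RDH10 lower, where it calls 1.42% of all genes lower. PTGES, the inducible prostaglandin E synthase, was at 108 and 80.2 FPKM under control siRNA, 8.80 under siRNA-1 and 21.1 under siRNA-2. The groups did not overlap, the limma adjusted p was 0.102, and the authors' deposited table lists a log2 change of -2.70, adjusted p 1.37e-12. RDH10, which oxidizes retinol to retinal, a substrate of AKR1B10, was at 30.9 and 20.6 FPKM under control siRNA, 7.60 under siRNA-1 and 8.30 under siRNA-2. In the authors' deposited table its log2 change is -1.68, adjusted p 1.96e-06. OSGIN1, ALDH2, ALDH3A1 and RDH10 were chosen for mention after their values were seen.

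The genes whose pattern over the 4 libraries was nearest to that of the AKR1C sum, of 9502 that averaged 5 FPKM or more, were MREG, CCND3, BMP6, SGK1 and GPX2. Nearness was the Euclidean distance between log2(FPKM + 1) values centred on the control mean, from 0.142 for MREG to 0.316 for GPX2. CCND3, which encodes cyclin D3, was at 174 and 200 FPKM under control siRNA, 39.8 under siRNA-1 and 70.9 under siRNA-2. GPX2, a glutathione peroxidase, was at 245 and 277, then 79.3 and 86.0.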

How the data were processed

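RNA-seq of 4 A549 libraries was read from 1 deposited table. Per the submitters' processing notes, its making involved HTSeq 0.13.5, DESeq2 1.26.0, StringTie 2.1.4 and STAR 2.7.0d on hg19; their roles are not given. The unit of the library columns is not in the headers; the deposited values were taken as FPKM, because they are not whole and sum to between 494066 and 528606 per library. Per the file headers the other columns are a DESeq2 table: the authors' mean normalized count is a signal column, the fold change and its standard error are log2 values, the Wald statistic is a score, and the p-value and adjusted p-value are the authors'. These were quoted and not recomputed.

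Limma 3.58.1 (R 4.3.3) was fitted with an intensity trend to log2(FPKM + 1) of the 14068 genes averaging 1 FPKM or more, without a block, with Benjamini-Hochberg adjustment over all of them. Residual degrees of freedom were 2, and the prior added 3.61. This scale understates changes of low genes. Coding identity, windows and promoters came from GENCODE 29 and RefSeq, which are not on the authors' build; the only coordinates given are those of the RefSeq promoter windows, on GRCh38.p14. Reads per library were not used here, so depth is known only as a mean. The test was checked on simulated data. A leukocyte marker is not reported here. Members and lists were chosen with earlier results of these data known. Named genes were CEBPB, the members, other superfamily rows at 1 FPKM or more, list genes past the threshold or with the smallest p, and the 5 nearest patterns.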

Additional observations from a re-analysis of the deposited data

Results flagged for a closer look

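AKR1B1 differed in sign between the siRNAs: with siRNA-1 it was below both controls and with siRNA-2 above both. The log2 difference, siRNA-1 minus siRNA-2, was -0.45 ± 0.15, which did not pass in limma with 3 groups (adjusted p = 0.190).

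AKR7A2 did the same, with a log2 difference of -0.66 ± 0.18 (limma adjusted p = 0.131). Over genes averaging 5 FPKM or more the limma adjusted p was 0.0468, in a fit that called 1293 of 9511 genes.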

How the results depend on the processing

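The count of members called lower in limma, 1 in the report, was 0 with a pseudocount of 0.1, with no filter on low values (where 0 genes were called in all), after rescaling to TPM, with no intensity trend, and with the paralog rows summed. At an unadjusted p below 0.05 there were still 4 members in each, or 1 sum. It was 4 with the siRNAs as separate groups, and 0 to 4 when each library was left out, being 0 without control 1 or without control 2, where no gene was called. In these fits the lone library is assumed to vary like the other group. The AKR1C sum was -1.74 (adjusted p = 0.0103) with separate siRNA groups and lay between -1.99 and -1.48 with a library left out, where its adjusted p ranged from 0.00814 to 0.800. The AKR1B sum was 0.036 after rescaling to TPM and lay between -0.19 and 0.13 with a library left out; AKR1B15 was 0.038 after rescaling to TPM and between -0.16 and 0.11. With a library left out AKR1B1 lay between -0.14 and 0.31, AKR1B10 between -0.32 and 0.0057 and AKR7A2 between -0.25 and 0.42, so these genes have no stable sign. The count of members that differ between the siRNAs, 0 in the report, was 2 with the filter at 5 FPKM; leaving out a control there leaves no residual degree of freedom, so it was not run. With the replicate number as a block, AKR1C1 had an adjusted p of 0.0363 and the AKR1C sum 0.0510, and no member's call changed. The numbers name an siRNA or a control library, and deviations of same-numbered libraries correlated at 0.0754 across genes, so they were not taken as pairs. No AKR1C gene changed sign under any alternative run. The cause of these changes was not tested. Over all genes limma called 33, but 971 with separate siRNA groups, 72 without siRNA-1 and 1764 without siRNA-2; between the siRNAs it called 62, but 1 with a pseudocount of 0.1, 1915 with no filter, 1293 with the filter at 5 FPKM, 355 with median-of-ratios scaling, and 0 after rescaling to TPM or with no trend. Few counted reads stand behind AKR1C4.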

Other observations

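AKR1C7P, a pseudogene in the same stretch of chromosome 10 as the AKR1C genes, was listed at 0 in every library but that of siRNA-1, where it had 2.003 FPKM; the authors' deposited table gives it a mean normalized count of 11.5 and no call. It was chosen after its values were seen.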
